A study of Homo sapiens with 12 samples.

Results

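The mitochondrially encoded genes were taken as the gene identifiers whose symbol starts with MT-. This gave 37 of the 63568 identifiers in the count table: 13 mRNA genes, 2 rRNA genes and 22 tRNA genes. All 37 lie on the mitochondrial chromosome of GRCh37, which is 16569 bases long, and all 37 had enough counts to be tested. The counts come from bulk RNA of MDA-MB-231/GFP cells, a triple negative breast cancer cell line labelled as wild type and suspended in droplets of Matrigel, a gel of basement membrane proteins. The 6 conditions were untreated cells on day 2 (C1), untreated cells on day 4 (C2), and cells taken on day 4 that had received Paclitaxel, which binds microtubules, on day 2 at 0.0005, 0.005, 0.05 or 0.5 μM. Each condition had 2 libraries, described as biological replicates, so that 8 treated libraries stand beside 4 untreated ones. All cells come from a single line, and no treated library was taken on day 2, so the treated against untreated comparison also holds the difference in day between the treated cells and C1. The day of the drug is that of the labels. The study's methods give a later day for its imaging cultures and describe the RNA cultures as a repeat of them, so the length of exposure rests on the labels.

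Mitochondria carry a small circular genome that is copied from both strands into long RNAs, and the single rRNAs, mRNAs and tRNAs are then cut out of them. The mRNAs encode subunits of 4 enzymes of the inner membrane: complex I (the ND genes), complex III (MT-CYB), complex IV (the CO genes) and the ATP synthase (the ATP genes). The rRNAs and tRNAs serve the mitochondrial ribosome, and every other protein of the organelle, including those that copy and cut its RNA, is encoded in the nucleus.

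The libraries held between 38380629 and 79169121 counts, and the C1 libraries, with 79169121 counts in replicate 1 and 38380629 in replicate 2, stood furthest apart. Markers of the line were present in every library, with medians of 1094 CPM (a library's counts scaled to its total) for VIM, 334 for AXL, 275 for CD44 and 143 for KRT18. ESR1 and PGR, the hormone receptors of the triple negative status, had medians of 0.292 and 0.0207 CPM, and CDH1 had 0.0889. ERBB2, the other receptor of that status, and EPCAM were set as low and had medians of 31.1 and 5.06 CPM. ERBB2 had at least 23.2 CPM in every library. Of 5 fibroblast markers COL1A1 and PDGFRB reached medians of 7.30 and 5.40 CPM while COL1A2, DCN and LUM stayed under 0.5 CPM in every library, and the leukocyte markers PTPRC, CD3E and CD79A stayed under 0.6 CPM, with CD14 at a median of 1.05.

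The mitochondrially encoded genes took between 3.73% and 7.74% of the counts of a library. In replicates 1 and 2 the share was 4.19% and 7.74% in C1, 4.72% and 5.97% in C2, 4.28% and 6.18% at 0.0005 μM, 4.92% and 4.50% at 0.005 μM, 4.51% and 3.73% at 0.05 μM, and 4.97% and 6.07% at 0.5 μM. The highest share was that of an untreated library and the lowest that of a treated library, and the other libraries of both kinds overlapped. The mean was 4.90% in the treated and 5.66% in the untreated libraries, a difference of -0.761 percentage points. This difference rests on C1 replicate 2, without which it was -0.067 points. Each share has a counting error of its own that is far smaller, since the widest 95% Wilson interval spanned 0.0169 points.

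Replicates of a condition differed as much as conditions did. The pooled SD within the 6 replicate pairs was 1.28 points and the SD of the 6 condition means 0.648 points, a ratio of 0.505. The mean absolute difference was 1.50 points between libraries of the same condition (6 pairs) and 1.24 points between libraries of different conditions (60 pairs). The ratio of the SDs was 1.45 without C1 replicate 1, which removes the widest pair, and 0.712 without C1 replicate 2. From C2 the means of the doses differed by -0.116, -0.636, -1.23 and 0.172 points, from the lowest to 0.5 μM. All of these are smaller than the SD of 1.28, but that SD is carried by the C1 pair, and over the other 5 pairs it was 0.848 points (chosen after seeing the data), which the difference at 0.05 μM exceeds.

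Depth differed between the libraries of a pair as well. In C1 the share differed 1.85-fold between replicates, while the total count differed 2.06-fold and the mitochondrial count itself only 1.12-fold. The deeper library had the lower share in 4 of the 6 pairs and the higher share at 0.005 and 0.05 μM. Mitochondrial counts per library ran from 2486165 to 3994753. Shares of single nuclear RNAs varied as well: ACTB, the cytoplasmic actin mRNA, took 0.111% to 0.329% of counts, and MALAT1 and NEAT1, which are retained in the nucleus, 0.0214% to 0.0953% and 0.0140% to 0.0597%. EEF1A1, GAPDH and RPLP0 spanned 1.09% to 1.66%, 0.240% to 0.434% and 0.233% to 0.413%, and for all 6 RNAs treated and untreated libraries overlapped. The part of depth, RNA quality or cell recovery in the share was not tested. In bulk RNA, fewer mitochondrial genomes per cell and less RNA from each cannot be told apart.

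**Figure D1:**
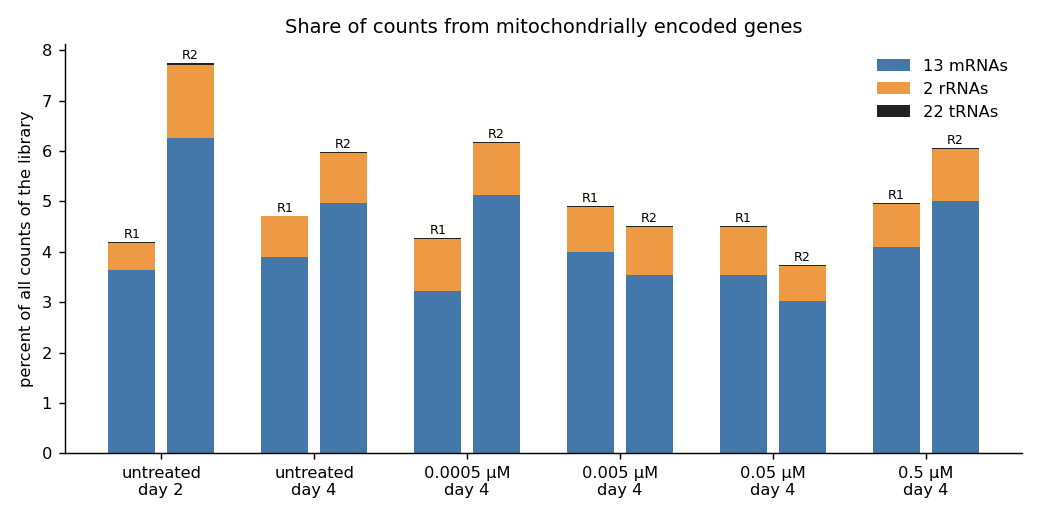
Stacked bars show the percent of all counts in each of the 12 libraries that came from the 13 mRNAs, the 2 rRNAs and the 22 tRNAs, with replicates R1 and R2 side by side. The bars run from 3.73% to 7.74%, and the C1 pair (untreated, day 2) spans most of that range by itself.

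Within the mitochondrial counts, the mRNAs took 75.3% to 86.9%, the rRNAs 12.8% to 24.2% and the tRNAs 0.312% to 0.507% of a library's total. The rRNA part was lowest in C1 replicate 1 and highest at 0.0005 μM in replicate 1, and treated (mean 19.2%) and untreated libraries (mean 16.3%) overlapped. Kits that select polyadenylated RNA or deplete rRNA both lower rRNA, and the kit was not stated in the sources used here, so the rRNA part is not a measure of the rRNA in the cells.

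Levels per length were compared as CPM per kb, from all counts with no further scaling. MT-CO3, a subunit of complex IV, was the highest, at 7942 ± 2076 (SD, n = 12), and lay above MT-ATP6 in 12 of 12 libraries, when only counts of the MT- genes themselves are used. With the counts of nuclear copies described below added to their parents, an alternative chosen after seeing the data, MT-ATP6 (8116 ± 2043) lay above MT-CO3 (7993 ± 2087) in 7 of 12 libraries, so the order of these mRNAs depends on the copies. On the counts of the MT- genes alone, MT-ATP6 (6590 ± 1677), MT-CO2 (6481 ± 1201) and MT-CO1 (6421 ± 1541) followed and could not be put in order. MT-ATP6 lay above MT-CO2 in 6 of 12 libraries and MT-CO2 above MT-CO1 in 7. With the copies added, MT-CO1 (7447 ± 1773) lay above MT-CO2 (6519 ± 1208) in 11 of 12 libraries. The mRNAs of complex IV and the larger ATP synthase subunit headed the list either way.

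The complex I mRNAs spread over the rest. MT-ND4 (4224 ± 965), MT-ND2 (3760 ± 1447) and MT-ATP8 (3643 ± 956) stood in the middle, with MT-ND2 above MT-ATP8 in 5 of 12 libraries. With the nuclear copies added, the mean of MT-ND2 (4768 ± 1839) passed that of MT-ND4, which lay below it in 5 of 12 libraries. MT-ND4L (2426 ± 544), MT-ND3 (2061 ± 484), MT-ND1 (1737 ± 297) and MT-CYB, the complex III subunit (1674 ± 390), followed, and MT-ND1 exceeded MT-CYB in 8 of 12 libraries. MT-ND5 (618 ± 74.6) and MT-ND6 (528 ± 56.0) were the lowest. MT-ND6 is the one mRNA gene annotated on the minus strand, and the strand used in counting was not stated, so its counts and reads from the opposite strand at that place cannot be told apart.

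Some mRNA genes share bases, and reads there can belong to either. MT-ATP8 and MT-ATP6 overlap by 46 bases at chrM:8527-8572 (plus strand, GRCh37), which is a large part of the 207 bases of MT-ATP8, and MT-ND4L and MT-ND4 overlap by 7. The shared stretch is printed because values of MT-ATP8 in particular depend on how it was counted. The capitals mark the start codon of MT-ATP6.
MT-ATP8/MT-ATP6: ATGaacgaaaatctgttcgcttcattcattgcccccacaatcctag

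**Figure D2:**
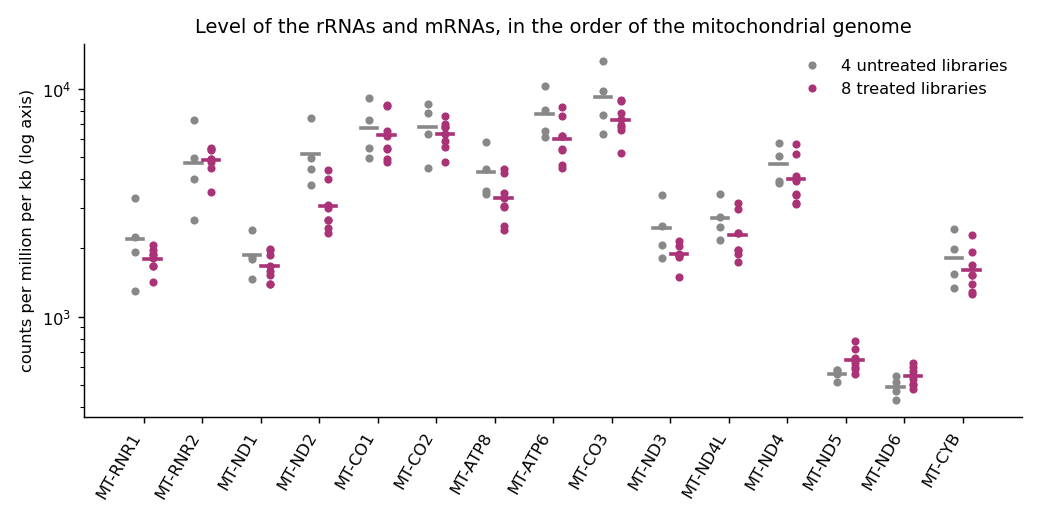
Points show CPM per kb from all counts (log axis) of each rRNA and mRNA in each library, in the order of the mitochondrial genome, with horizontal lines at the means of the 4 untreated and the 8 treated libraries. MT-ND5 and MT-ND6 lie lowest, at means of 618 and 528 over all 12 libraries, and MT-CO3 lies highest among the mRNAs, with counts of nuclear copies left out.

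Paclitaxel was compared with C2 dose by dose for each of the 37 genes, with edgeR's quasi-likelihood test and Benjamini-Hochberg adjustment over 25249 genes. No mitochondrial gene was called at an adjusted p under 0.05 at any dose, where 2.34% of all genes were called at 0.0005 μM (1.87% higher, 0.479% lower), 3.28% at 0.005 μM (2.5% higher, 0.776% lower), 8.32% at 0.05 μM (5.09% higher, 3.23% lower) and 6.32% at 0.5 μM (4.36% higher, 1.96% lower). DESeq2 called 0, 0, 1 and 1, beside 4.65%, 5.39%, 10.6% and 9.11% of all genes. At an unadjusted edgeR p under 0.05 there were 0, 0, 3 and 5 of the 37. The share of all genes at that unadjusted threshold was not computed, so these counts have no background. The 3 at 0.05 μM were MT-ND2, MT-TS1 and MT-TK, all lower, and the 5 at 0.5 μM were MT-ND5 and the tRNA genes MT-TQ, MT-TR, MT-TS2 and MT-TL2, all higher. These tRNA genes were named after their values were seen. Without C1 replicate 1, and likewise without C1 replicate 2, 2 genes were called at 0.05 μM and 3 at 0.5 μM, although neither library is part of these contrasts. In those fits the share of all genes called was also higher, at 18% and 18.1% for 0.05 μM and 18.5% and 18.8% for 0.5 μM. Without C2 replicate 1 it fell to 1.19% and 0.48% at these doses, with 0 of the 37 called.

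The mRNAs did not move steadily with dose. In order of rising dose, the median of their log2 fold changes relative to C2 was -0.02, -0.34, -0.50 and -0.01, beside medians over all genes of -0.01, 0.04, -0.01 and 0.04. At 0.005 and 0.05 μM the estimate was below 0 for 12 of the 13 mRNAs, MT-ND5 being the exception at both, and at 0.5 μM for 7. All 4 doses share the C2 libraries. The slope per 10-fold dose within the 8 treated libraries was called for 0 of the 37 genes, beside 3.15% of 25057 genes (1.04% with a rise, 2.11% with a fall). At an unadjusted edgeR p under 0.05 there was 1 (MT-TR, 0.20). Without replicate 2 of 0.0005 μM there were 11 at that threshold and 0 called, where 1.03% of all genes were called. Without replicate 1 of that dose there were 0 at that threshold, where 0.463% of all genes were called. No share of all genes at the unadjusted p was computed for the slope.

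Between the untreated days the estimates were mostly below 0 on day 4. The median over the 13 mRNAs was -0.34, beside -0.02 over all genes, and 34 of the 37 genes had an estimate below 0, but none was called (edgeR), beside 0.325% of all genes (0.321% higher, 0.00396% lower). DESeq2 called 1, beside 1.09% of all genes. At an unadjusted edgeR p under 0.05 there were 7, all lower on day 4, again with no share of all genes computed at that threshold. The lowest unadjusted p belonged to MT-TL1, a leucine tRNA, with a log2 fold change of -0.97 (SE 0.27, edgeR adjusted p = 0.274). The number called was 8, all lower, without C1 replicate 1, where 10% of all genes were called, and 0 without C1 replicate 2, where 7.03% were.

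The 8 treated against the 4 untreated libraries gave the largest number of calls. In this comparison 5 of the 37 genes were called (edgeR), 4 lower and 1 higher, where 24.4% of all 25249 genes were called, 11.3% lower and 13.1% higher. With total counts as the only scaling 2 were higher and 2 lower, and DESeq2 called 7, 2 higher and 5 lower, beside 28% of all genes. At an unadjusted edgeR p under 0.05 there were 11 of the 37. The share of all genes at that threshold was not computed and cannot be below the 24.4% called. The 5 were the complex I mRNAs MT-ND2 and MT-ND3 and the tRNA genes MT-TV, MT-TK and MT-TR, the last of which was higher. The share called was below that of all genes. The count was 2 without C1 replicate 2 and 8 with the second 0.0005 μM library left out, and it was 3 when the first 0.005 μM library or either 0.05 μM library was dropped. The share of all genes called in these fits ran from 20.7% to 26.4%. No gene of the 37 had CPM values in which treated and untreated libraries did not overlap, beside 7.39% of all genes with treated libraries higher and 5.77% with treated libraries lower.

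MT-ND2 encodes a core membrane subunit of complex I. Its level, in CPM scaled by TMM (edgeR's normalization by a trimmed mean), was 5142 and 8855 in C1, 3989 and 5095 in C2, 2587 and 5023 at 0.0005 μM, 2989 and 2618 at 0.005 μM, 2747 and 2096 at 0.05 μM, and 3052 and 3967 at 0.5 μM. Of the treated libraries, only replicate 2 at 0.0005 μM lay above the lowest untreated library. The log2 fold change of treated against untreated was -0.88 (SE 0.22, edgeR adjusted p = 0.00832). The call was kept in all 20 alternatives, with values between -1.03 and -0.58 and adjusted p-values between 0.000812 and 0.0404. Against C2 the values were -0.26 (SE 0.33), -0.70 (SE 0.33), -0.91 (SE 0.33) and -0.37 (SE 0.33) from the lowest dose to the highest, with edgeR adjusted p-values of 0.728, 0.279, 0.115 and 0.527. MT-ND2 was called in 5 of 20 alternatives at 0.05 μM (adjusted p from 3.66e-05 to 0.0404 among them, by edgeR or DESeq2) and in 2 of 20 at 0.005 μM (0.00366 with no filter, 0.0261 in the 4 libraries alone, by edgeR). Replicates left out moved the value at 0.0005 μM from -0.81 to 0.14 and that at 0.5 μM from -0.58 to -0.20. From day 2 to day 4 the untreated libraries themselves differed by -0.62 (SE 0.33, edgeR adjusted p = 0.530), a value that was -0.96 without C1 replicate 1 and -0.15 without C1 replicate 2 and was called with no filter on low counts (edgeR adjusted p = 0.0344).

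The other complex I mRNAs went less far. MT-ND3 was at 698 and 1347 CPM in C1 and 725 and 852 in C2, and from 446 through a median of 631 to 774 in the treated libraries. Its log2 fold change was -0.52 (SE 0.17, edgeR adjusted p = 0.0299), but without C1 replicate 2 it was -0.25 (adjusted p = 0.169) and with total counts as the only scaling -0.38 (adjusted p = 0.0605). MT-ND1 (-0.30), MT-ND4 (-0.35) and MT-ND4L (-0.37) were not called. MT-ND5, the largest of the mitochondrially encoded subunits, and MT-ND6 had estimates of 0.08 (SE 0.13) and 0.03 (SE 0.11), neither of them called. The estimate of MT-ND6 was -0.012 without C1 replicate 1 and -0.021 without replicate 1 at 0.5 μM.

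Outside complex I no mRNA was called. The estimates were -0.31 for MT-CYB (SE 0.19, edgeR adjusted p = 0.263), -0.22 for MT-CO1 (SE 0.22), -0.22 for MT-CO2 (SE 0.18) and -0.47 for MT-CO3 (SE 0.20). The ATP synthase subunits MT-ATP6 and MT-ATP8 were at -0.49 (SE 0.20) and -0.51 (SE 0.20), with edgeR adjusted p-values of 0.0923 and 0.0667. MT-ATP8 was called in 4 of 20 alternatives (adjusted p as low as 0.0198, by edgeR) and MT-ATP6 in 1, with the second 0.0005 μM library left out (0.0219), as was MT-ND4L (0.0391). Most of these estimates leaned on C1 replicate 2: without it they were -0.08 for MT-CYB, -0.03 for MT-CO2, -0.18 for MT-CO3, -0.26 for MT-ATP6 and -0.27 for MT-ATP8, and -0.09, -0.16 and -0.18 for MT-ND1, MT-ND4 and MT-ND4L. The estimate of MT-CO1 ran from -0.34 to 0.022 over libraries left out, so its sign was not stable. The median over the 13 mRNAs was -0.35, beside -0.0019 over all genes, and 11 of the 13 were below 0 under each of 6 scalings and filters. With total counts alone the median of the mRNAs was -0.22 and that of all genes 0.13, and without the filter on low counts that of all genes was 0.27. Both rRNAs had estimates below 0 that were not called, MT-RNR1 at -0.42 (SE 0.20) and MT-RNR2 at -0.09 (SE 0.22). That of MT-RNR1 was -0.60 without C1 replicate 1 (edgeR adjusted p = 0.0361, called) and -0.08 without C1 replicate 2. That of MT-RNR2 was 0.04 with total counts alone and 0.27 without C1 replicate 2.

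**Figure D3:**
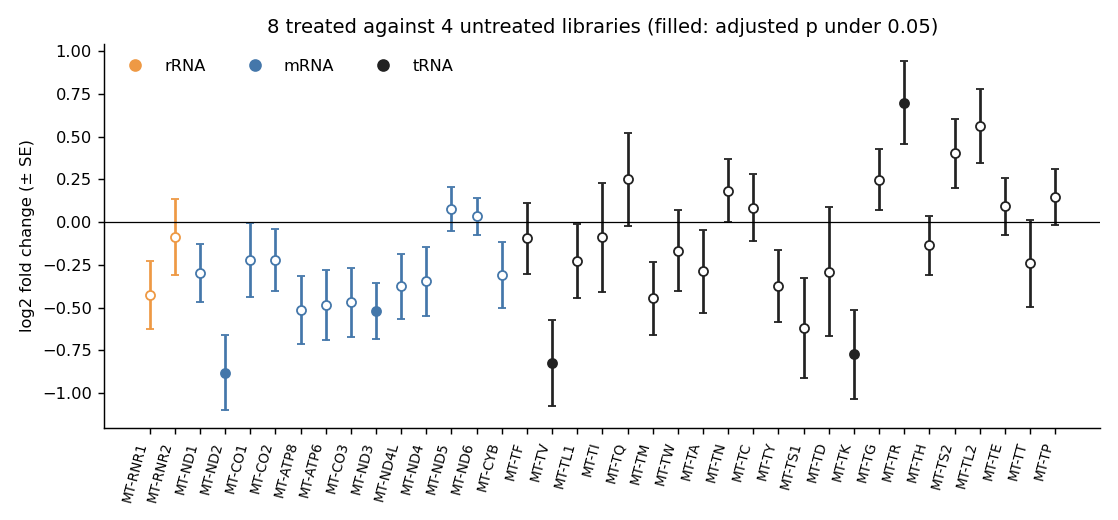
Points show the log2 fold change of the 8 treated against the 4 untreated libraries for each of the 37 genes, with bars of 1 standard error and filled points for an edgeR adjusted p under 0.05. MT-ND2 lies lowest, at -0.88, and most mRNAs lie between it and 0, while the tRNAs fall on both sides.

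Each mRNA was also taken as a percent of the 13 mRNAs summed, which removes the size of the pool. MT-CO1 made up 21.1% to 26.2%, MT-CO3 13.4% to 16.5% and MT-ND4 12.7% to 15.3%, and the highest library exceeded the lowest 1.25-fold, 1.23-fold and 1.2-fold. The low mRNAs MT-ND5 and MT-ND6 varied 2.22-fold and 2.33-fold, more than the 2.07-fold of the mRNA pool as a share of all counts. For 3 of the 13 mRNAs the treated and the untreated libraries did not overlap: MT-ND2 and MT-ATP8 were lower and MT-CO1 was higher in the treated libraries. The share of all genes without overlap in CPM, 7.39% higher and 5.77% lower, is a background on another scale. These are shares of a whole, so a fall in some must appear as a rise in others. With MT-CO1, the most abundant, left out of the sum, only MT-ND2 was without overlap.

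MT-ND2 made up 12.7% and 12.3% of mRNA counts in C1, 10.1% and 10.3% in C2, 7.94% and 8.91% at 0.0005 μM, 8.05% and 7.79% at 0.005 μM, 7.80% and 7.96% at 0.05 μM, and 7.60% and 8.37% at 0.5 μM. Replicates lay close together, C1 was above C2, and C2 was above all 8 treated libraries. The mean was 8.05% ± 0.412 (SD, n = 8) in the treated and 11.4% ± 1.34 (SD, n = 4) in the untreated libraries. The SD of the condition means was 4.84 times the pooled SD within pairs, the highest ratio of the 13 mRNAs, where the total share of counts had 0.505. All 4 doses lay within 7.60% to 8.91%, and no order by dose appeared.

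MT-CO1, the catalytic subunit of complex IV, made up 24.4% ± 0.931 (SD, n = 8) of mRNA counts in the treated and 21.9% ± 0.738 (SD, n = 4) in the untreated libraries, with ranges of 23.5% to 26.2% and 21.1% to 22.7%. Its ratio of SD between conditions to SD within pairs was 1.53. MT-ATP8 ranged from 1.55% to 1.79% in the treated and from 1.84% to 2.03% in the untreated libraries, with a ratio of 1.31. MT-ATP6 came close to the same pattern, with 9.79% to 11.1% against 11.0% to 11.4%, and did not overlap when C2 replicate 2 or replicate 2 at 0.0005 μM was left out. MT-CO2, MT-CO3, MT-CYB and the other ND mRNAs overlapped, although MT-ND1 did not without C1 replicate 1. MT-ND5 averaged 3.04% in the treated and 2.25% in the untreated libraries, but ran from 2.33% to 3.73% and from 1.68% to 2.91%.

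The ratio of the rRNAs separated treated from untreated libraries too. MT-RNR2, the RNA of the large ribosomal subunit, exceeded MT-RNR1, that of the small subunit, 3.34-fold and 3.58-fold in C1 and 3.42-fold and 3.61-fold in C2. In the treated libraries the ratio was 4.78 and 4.51 at 0.0005 μM, 4.69 and 4.43 at 0.005 μM, 4.31 and 4.04 at 0.05 μM, and 4.38 and 4.28 at 0.5 μM. All treated libraries lay above all untreated ones, with means of 4.43 and 3.49, and the SD between conditions was 3.16 times that within pairs. The ratio is of counts, not per length, and the unstated kit limits the counts of both rRNAs. No share over all features was computed for such ratios. Neither rRNA was called in the main fit or was without overlap in CPM. The ratio of MT-ND6 to MT-ND5 did not separate the 2 kinds. It was 0.212 and 0.235 in C1, 0.290 and 0.284 in C2, and 0.231 to 0.253 in the treated libraries, so that C2 lay above every other library.

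**Figure D4:**
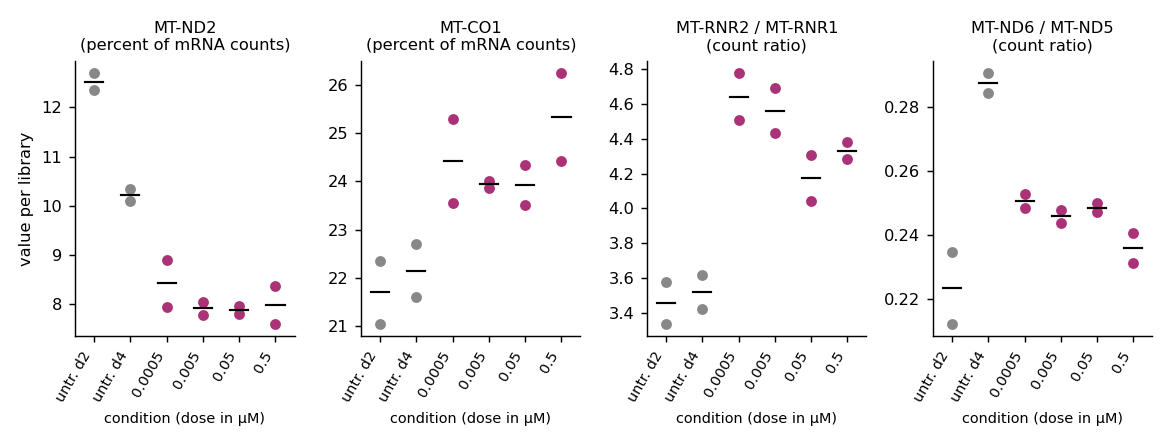
Points show single libraries and black lines the condition means for the share of MT-ND2 and of MT-CO1 in the counts of the 13 mRNAs and for the count ratios MT-RNR2 to MT-RNR1 and MT-ND6 to MT-ND5, with untreated libraries in grey and treated ones in purple. Axes do not start at 0. MT-ND2 steps down from C1 (12.7% and 12.3%) to C2 (10.1% and 10.3%) to the treated libraries (7.60% to 8.91%).

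Copies of mitochondrial genes in the nuclear genome bear on MT-ND2. Of 394 identifiers for such pseudogenes 192 had counts, and MTCO1P12, MTATP6P1 and MTND2P28 held 96.7% of them. These 3 and MTCO3P12, MTCO2P12 and MTND1P23 lie together on chromosome 1 and are 98.2% to 99.1% identical to their parents. The counts of the first 3 were a nearly fixed percent of the parent in every library, 25.6% to 27.7% of MT-ND2 for MTND2P28, 15.3% to 16.7% of MT-CO1 for MTCO1P12 and 22.5% to 23.9% of MT-ATP6 for MTATP6P1. MTCO3P12 (0.560% to 0.762%) and MTND1P23 (2.14% to 2.66%) had a smaller and more variable percent of theirs. MTND2P28 was called lower in treated against untreated libraries, with a log2 fold change of -0.90 (SE 0.21, edgeR adjusted p = 0.00549), close to that of its parent, and MTCO3P12 with -0.55 (SE 0.16, edgeR adjusted p = 0.0173).

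Reads of this kind are hard to place. Of all stretches of 100 bases, 26.1% in MT-ND2, 27.9% in MT-CO1, 11.9% in MT-ATP6, 11.0% in MT-ND1, 4.67% in MT-CO3 and 2.39% in MT-CO2 occur unchanged in the chromosome 1 copy, and none in the other 7 mRNAs. A read pair that lies wholly in such a stretch aligns to both places and was not kept, so these genes can be undercounted relative to the others. The sequences below, on the plus strand, show 60 bases of MT-ND2 (chrM:4707-4766) and of MTND2P28 (chr1:565257-565316, both GRCh37), which differ by a single base, in capitals. They are shown since a read of a pair must cover such a base for the pair to be placed.
MT-ND2: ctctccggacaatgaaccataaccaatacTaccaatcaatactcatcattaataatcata
MTND2P28: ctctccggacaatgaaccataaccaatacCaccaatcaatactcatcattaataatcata
With the counts of the 6 copies added to their parents, an alternative chosen after seeing the data, MT-ND2, MT-ATP8 and MT-CO1 were still the 3 mRNAs without overlap, and MT-ND2 made up 8.88% to 10.3% of the treated and 11.7% to 14.7% of the untreated libraries. Whether reads counted in the copies came from the mitochondrial genome was not tested.

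The tRNA genes had few counts, and most of them fell on few genes. Mature tRNAs are short and carry many modified bases, so that standard RNA libraries hold few of them, and the counts may include precursors. MT-TN (asparagine), MT-TP (proline) and MT-TC (cysteine) had means of 4173, 3975 and 2692 counts per library, 81.0% of all tRNA counts. MT-TY (tyrosine) and MT-TL1 (leucine) followed with 778 and 627, and the other 17 had means of 17.7 to 195. The 4 highest are all annotated on the minus strand, as are 8 of the 22. The strand of counting was not stated, so reads from the opposite strand at these places cannot be told apart.

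The sequences of the 3 tRNA genes with the most counts and of the 3 that were called follow, on the coding strand and with the anticodon in capitals, since the results on tRNAs turn on them. MT-TN lies at chrM:5657-5729, MT-TC at chrM:5761-5826, MT-TP at chrM:15956-16023 (all minus strand), MT-TV at chrM:1602-1670, MT-TK at chrM:8295-8364 and MT-TR at chrM:10405-10469 (all plus strand, GRCh37).
MT-TN: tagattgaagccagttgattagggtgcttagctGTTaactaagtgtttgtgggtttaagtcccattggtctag
MT-TP: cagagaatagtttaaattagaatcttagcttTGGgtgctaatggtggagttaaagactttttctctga
MT-TC: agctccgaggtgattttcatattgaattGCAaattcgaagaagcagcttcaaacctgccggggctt
MT-TV: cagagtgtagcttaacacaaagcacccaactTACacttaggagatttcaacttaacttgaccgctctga
MT-TK: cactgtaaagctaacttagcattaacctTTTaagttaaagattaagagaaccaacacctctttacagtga
MT-TR: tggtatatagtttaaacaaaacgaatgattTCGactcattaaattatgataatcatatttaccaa

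As a percent of mitochondrial counts, the tRNAs summed to 0.408% to 0.507% in the treated and 0.312% to 0.353% in the untreated libraries, which did not overlap. The 3 abundant genes made up most of this. MT-TN made up 0.126% to 0.172% in the treated against 0.0849% to 0.104% in the untreated libraries, MT-TP 0.113% to 0.161% against 0.0828% to 0.109%, and MT-TC 0.0808% to 0.103% against 0.0537% to 0.0721%. With MT-ND2 and MT-ATP8, which were lower, these are the 5 of the 37 genes without overlap on that scale. On the CPM scale over all genes, 7.39% were without overlap and higher and 5.77% lower, so 5 of 37 is near that background. On the TMM scale over all genes none of the 3 was called, with estimates of 0.18 (SE 0.18), 0.15 (SE 0.16) and 0.09 (SE 0.19), and without C1 replicate 1 those of MT-TP and MT-TC were -0.0073 and -0.095.

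**Figure D5:**
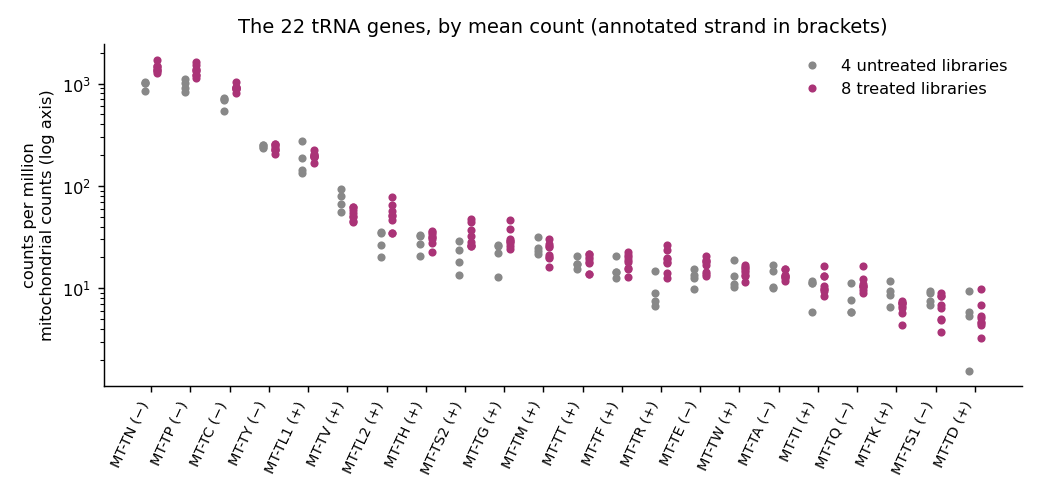
Points show CPM computed within the mitochondrial counts (log axis) of the 22 tRNA genes in each library, sorted by mean count, with the annotated strand in brackets. MT-TN, MT-TP and MT-TC stand far above the rest, and their 8 treated libraries (purple) lie above the 4 untreated ones (grey).

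The 3 tRNA genes called between treated and untreated libraries were among those with few counts. MT-TV, the valine tRNA that lies between the rRNA genes, was at 3.69 and 8.20 CPM in C1, 3.19 and 3.31 in C2, and 1.45 to 4.20 (median 2.49) in the treated libraries. Its log2 fold change was -0.82 (SE 0.25, edgeR adjusted p = 0.0243), and -0.39 (adjusted p = 0.171) without C1 replicate 2. That library, the highest of the 12 for MT-TV, carried much of the difference.

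MT-TK (lysine) had a mean of 24.0 counts per library. It was at 0.548 and 0.835 CPM in C1, 0.409 and 0.386 in C2, and 0.197 to 0.459 in the treated libraries, with a log2 fold change of -0.77 (SE 0.26, edgeR adjusted p = 0.0381). MT-TR (arginine), with a mean of 50.9 counts, was at 0.309 and 0.656 CPM in C1, 0.704 and 0.534 in C2, and 0.612 to 1.28 in the treated libraries, with 0.70 (SE 0.24, edgeR adjusted p = 0.0422). Both calls were weak: each was lost in 9 of 20 alternatives, with adjusted p-values from 0.0227 to 0.161 for MT-TK and from 0.0234 to 0.183 for MT-TR, at most without C1 replicate 2 and without C1 replicate 1. Treated and untreated libraries overlapped for both.

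Nuclear genes that serve the mitochondrial genome were read from lists in the same fits. Of 13 genes of mitochondrial DNA maintenance, 5 were lower in treated against untreated libraries and 0 higher, with a list median of -0.22. Of all genes, 11.3% were called lower and 13.1% higher. The 5 were the nuclease DNA2 (-0.92, SE 0.12, edgeR adjusted p = 7.21e-05), the ligase LIG3 (-0.50), the thymidine kinase TK2 (-0.37), and PRIMPOL and MGME1 (-0.41 and -0.30), the last 2 named after their values were seen. DNA2 also fell against C2 at 0.0005, 0.005 and 0.05 μM, by 0.74, 0.72 and 0.84 on the log2 scale. At these doses 0.479%, 0.776% and 3.23% of all genes were called lower. DNA2 and LIG3 act in nuclear DNA repair and replication as well. Of the 6 genes of mitochondrial transcription, which include the polymerase POLRMT and TFAM, 0 were called (median -0.15).

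The RNA-processing list had 30 tested genes, of which 3 were lower and 1 higher (median -0.14). ANGEL2 (-0.39), FASTK (-0.35), which acts on MT-ND6 RNA, and MTERF3 (-0.26) were lower, and PRORP, the protein that cuts the 5′ ends of mitochondrial tRNAs, was higher (0.52, at 1.76 CPM on average, named after its values were seen). FASTKD3 was higher at 0.5 μM against C2 (0.70, SE 0.18, edgeR adjusted p = 0.0398). Of 13 translation factors 1 was called, the elongation factor GFM1 (-0.36), with a list median of -0.06.

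Nuclear subunits of the same enzymes were compared in the same way. The list for complex I had 12 genes, among them NDUFA4, which is now placed in complex IV. Of the 12, 3 were lower (NDUFS7, -0.41, NDUFV1, -0.28, and NDUFA10, -0.25) and 1 higher (NDUFV2, 0.61, at 4.12 CPM on average, named after its values were seen), with a median of -0.14. NDUFS7 was also lower at 0.5 μM against C2 (-0.53, SE 0.15, edgeR adjusted p = 0.0495). Of 9 genes of complex III 1 was lower (UQCRFS1, the iron-sulfur protein, -0.34), and 0 of 10 of complex IV and 0 of 15 of complex V were called, with medians of -0.15, -0.03 and -0.17. Between the untreated days, where none of these genes was called, the median on day 4 was -0.19 for complex I, -0.29 for complex III, -0.52 for complex IV and -0.43 for complex V, with 1 of 12, 0 of 9, 0 of 10 and 0 of 15 estimates above 0, beside -0.34 for the mitochondrial mRNAs. Against C2, in order of rising dose, the medians were 0.05, -0.10, -0.10 and 0.01 for complex I, 0.17, 0.03, -0.08 and 0.04 for complex III, 0.31, 0.17, 0.05 and 0.29 for complex IV, and 0.19, 0.06, -0.04 and 0.15 for complex V, with none called but NDUFS7 at 0.5 μM. All of these comparisons use the C2 libraries. Of 8 regulators of mitochondrial biogenesis 1 was lower (the transcription factor NRF1, -0.32), and PPARGC1B, a coactivator, had a slope of 0.34 per 10-fold dose (SE 0.07, edgeR adjusted p = 0.0172). The counts for treated against untreated libraries stand beside 11.3% of all genes called lower and 13.1% called higher, and at most 5 genes of a list were called. The calls at 0.5 μM stand beside 4.36% of all genes called higher and 1.96% called lower, and that of the slope beside 1.04% with a rise.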

How the data were processed

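The authors trimmed paired 100-base reads with Trimmomatic 0.39, checked them with FastQC 0.11.9, aligned them to GRCh37 with STAR 2.7.5 (versions per the submitters' processing notes), kept unique alignments and counted with Rsubread, and the deposited values are whole-number counts of reads in exons per gene, neither normalized nor pooled. The kit, and the strand and overlap settings of counting, are not given in the sources used here. The 12 single-sample files were identical to the series table. Symbols, coordinates and lengths came from GENCODE release 44 on GRCh37 and a table of gene names, and sequences from the GRCh37 genome.

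Shares are percents of a library's counts. Tests used R 4.3.3 with edgeR 4.0.16 and limma 3.58.1: TMM scaling, filterByExpr on the 6 conditions, robust quasi-likelihood fits, two-sided, with Benjamini-Hochberg adjustment over all genes tested, called at an adjusted p under 0.05. Doses and days were contrasts in a fit of 6 conditions (6 residual degrees of freedom, common biological coefficient of variation 15.6%). Treated against untreated libraries (10 residual degrees of freedom) and the slope on log10 dose had their own fits. The procedure was tested on simulated counts. Sums over the genes were given no p-value. Intervals cover counting error only.

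Members, lists, tests and the rule for named genes were chosen with earlier results of these data known. All mRNAs and rRNAs were named, of the tRNAs the 5 with the highest mean count and any called, of each nuclear list up to 3 called genes with the smallest adjusted p and at least 5 CPM, the 5 highest pseudogenes, and the nuclear RNAs and markers. Alternatives were RLE or total-count scaling, scaling without the MT- genes, DESeq2 1.42.0, no filter beyond 1 count in total, each library left out, fits of only the 4 libraries compared, a term for the replicate number, and non-robust estimation. Shares were also computed without the rRNAs, for the mRNAs alone, over identifiers with a symbol, and with nuclear copies added (chosen after seeing the data, also for levels per kb).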

Additional observations from a re-analysis of the deposited data

Results flagged for a closer look

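Each mRNA's percent of mRNA counts, the mitochondrial share of counts, the rRNA and tRNA percents and the 2 count ratios were checked for a library far from the others of its kind, in 36 groups of 4 untreated or 8 treated libraries. Of these, 3 stood apart by Dixon's test at 95%, which chance gives in about 1 of 20 groups. MT-ND1 made up 4.68% of mRNA counts in C1 replicate 1, with the nearest untreated library at 3.66%. MT-ND4L made up 2.02% in the same library, with the nearest at 1.65%. MT-ATP8 made up 1.55% in replicate 1 at 0.0005 μM, with the nearest treated library at 1.70%.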

How the results depend on the processing

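Of the called genes, MT-ND2 kept its call and direction in all 20 alternatives, MT-ND3 and MT-TV in 18, and MT-TK and MT-TR in 11. The number of mitochondrial genes called against C2, 0 at each dose, was 3, 1, 2 and 2 in order of rising dose in fits of the 4 libraries alone (12%, 11%, 12.6% and 11.4% of all genes), and 1, 6 and 2 at the 3 higher doses with no filter beyond 1 count in total (3.9%, 5.65% and 5.74%). DESeq2 called 1 at 0.05 μM and 1 at 0.5 μM (10.6% and 9.11%). Between the untreated days it was 3 without the filter and 1 by DESeq2 (0.797% and 1.09%), and in treated against untreated libraries 2 without the filter (11.7%). When libraries were left out in turn, it ranged from 0 to 2 at 0.05 μM, 0 to 3 at 0.5 μM, 0 to 8 between days and 2 to 8 in treated against untreated libraries. The ratio of SDs of the share ranged from 0.386 to 1.45 in the same way, and the number of mRNA shares without overlap was 1 with MT-CO1 left out of the sum. Among the mRNAs, rRNAs and the named tRNAs, the ones rerun singly, estimates that changed sign in treated against untreated libraries were those of MT-RNR2 (0.044 with total counts alone), and, over libraries left out, MT-RNR2 (-0.28 to 0.27), MT-CO1 (-0.34 to 0.022), MT-ND6 (-0.021 to 0.065), MT-TP (-0.0073 to 0.36), MT-TC (-0.095 to 0.38) and MT-TL1 (-0.42 to 0.047). Those of MT-ND2 ranged from -0.81 to 0.14 at 0.0005 μM and from -0.16 to 0.12 for the slope. The cause was not tested. Correlations of the replicate differences over 15 pairs of conditions ran from -0.30 to 0.36, with 6 over 0.1. These mixed values cannot settle whether the replicate numbers pair the samples. With the replicate number as a block, 5 genes were called in treated against untreated libraries (1 higher, 4 lower) and 0 in the other comparisons, and the share of all genes called for the slope was 1.68%.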
